A study of Homo sapiens with 40 samples.

Results

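The genes described here are 73 nuclear genes for respiratory chain and ATP synthase subunits in HEK293T cells, a human embryonic kidney line. They were chosen by name from a count table of 57992 gene IDs: NDUFA, NDUFB, NDUFC, NDUFS or NDUFV with a number, SDHA to SDHD, and names that begin with UQCR, COX4 to COX8 or ATP5, without pseudogene and hyphenated names and with at least 10 counts in each of 20 input libraries. Of 86 names that matched, 73 met that minimum. They comprised 31 subunits of complex I (6 of its conserved core and 25 accessory), 4 of complex II, 9 entries of complex III, 11 of complex IV, 15 of complex V and 3 other genes. NDUFA4 was counted with complex IV, to which its protein is now assigned. UQCRHL is a near-identical copy of UQCRH, so reads could be split between them and both are uncertain. The 3 other genes were COX7A2L, which joins complexes into supercomplexes, and ATP5S and ATP5SL, now named DMAC2L and DMAC2, which are not structural subunits.

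The 13 names that failed the minimum included the tissue-restricted isoforms COX4I2, COX6A2, COX6B2, COX7A1, COX7B2 and COX8C and 5 complex I genes (NDUFV2, NDUFA3, NDUFA6, NDUFA7 and NDUFA13). NDUFV2, a core subunit, had 0 to 23 counts per input library and COX4I2 had 0 in all of them. Whether low counts of a gene reflect its expression or how reads were mapped and counted was not tested. Just inside the minimum lay NDUFS1, with 18 to 289 counts, and NDUFB8, with 29 to 155. At the other end, ATP5B had 4187 to 19310 counts. The name rule also missed CYC1, NDUFAB1 and CYCS, which are given below with the other genes of the pathway.

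In the respiratory chain, complexes I and II pass electrons from NADH and succinate to ubiquinone, complex III hands them to cytochrome c, and complex IV passes them to oxygen. Complexes I, III and IV pump protons out of the mitochondrial matrix, and complex V, the ATP synthase, lets them back to make ATP. Most subunits are encoded in the nucleus, translated in the cytosol or at the mitochondrial surface and imported, and a few are encoded and translated inside the mitochondrion, while the transcripts described here are made in the nucleus.

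The study placed APEX2, a peroxidase that activates biotin-phenol so that RNA and protein close by are biotinylated, at 4 sites. In the s6G and s4U arms, cells were also given 100 uM 6-thioguanosine or 4-thiouridine for 5 h in all. These nucleosides are built into RNA made during the exposure. Each enriched library was made from RNA bound to streptavidin and set against an input library of the same RNA before binding. The constructs and arms were MITO (mitochondrial matrix) with s6G, s4U, APEX-only and unlabelled arms, ERM (endoplasmic reticulum membrane) with s6G only, NES (cytosol) with s6G only, and LMNB1 (nuclear lamina) with s6G, APEX-only and unlabelled arms. All groups had 2 enriched and 2 input libraries, except ERM with 4 and 4. The s6G, s4U and APEX-only arms received 0.5 mM biotin-phenol for 30 min and 1 mM hydrogen peroxide for 1 min, and the APEX-only arms no thionucleoside. The unlabelled arms received the peroxide alone. ERM and NES have no arm without s6G in these data, and how the constructs were introduced into the cells is not given in the sources used here. All libraries were polyA-selected. Enriched libraries were made from 6.5 ug of RNA with 15 cycles of PCR and input libraries from 300 ng with 11 cycles, so that enrichment and library preparation cannot be told apart in any comparison of the 2 fractions.

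Library totals ran from 123341 counts in the first enriched unlabelled MITO library, and 842177 in the second, to 14496768 counts in an enriched ERM library. VIM, NEFL and NEFM, which HEK293T cells are known to express, had at least 24.9 CPM (counts scaled to a common library size) in every library, while PAX2 ran from 0.187 to 16.8 CPM and LHX1 was at or under 0.388 CPM. Of 5 markers of other cell types, PTPRC and HBB were at 0 in every input, PECAM1 reached 0.561 CPM and ALB 0.485 CPM in inputs, and COL1A1 had 3.60 to 85.7 CPM over all libraries, the highest in an input. In enriched libraries PTPRC reached 13.1 CPM, PECAM1 8.31 CPM and ALB 8.11 CPM. The part of these markers in the results was not tested. LMNB1 reached 2340 to 6728 CPM in LMNB1 libraries, against 77.8 to 339.9 CPM in the others, and SEC61B 1091 to 3452 CPM in ERM libraries, against 57.1 to 235 CPM. For the 4 enriched ERM and all 4 LMNB1 s6G libraries, one label field gives s4U whereas title and study design give s6G, which was followed. Transcripts of the mitochondrial genome took 36.1% and 58.2% of counts in the enriched MITO s6G libraries, against 5.54% and 5.90% in their inputs. Values per gene below are CPM after TMM scaling within a construct's fit, and a change is a log2 fold change ± standard error from edgeR's quasi-likelihood test, called at a Benjamini-Hochberg adjusted p of 0.05 over all genes tested. The labels do not say that libraries of a group came from separate cultures, so p-values reflect only how much these libraries vary.

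Per length, the 73 transcripts spanned a wide range of levels. In MITO APEX-only input libraries the authors' deposited TPM, averaged over both replicates, ran from 1.74 for NDUFA9 to 1016 for ATP5B, with a median of 59.0. ATP5B, the catalytic beta subunit of the ATP synthase, was followed by NDUFB10 at 728 TPM, COX7C at 710.3 TPM and COX5B at 464 TPM. By complex, the median TPM was 26.4 for complex I, 20.9 for complex II, 119 for complex III, 115 for complex IV and 84.3 for complex V. Within complex I alone the TPM ran from 1.74 to 728. These TPM come from the authors' sum over both replicates, so no spread between replicates can be given.

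At the endoplasmic reticulum membrane, respiratory chain transcripts were less abundant after s6G labelling and enrichment than in the input. Of the 73 genes, 66 (90.4%) were lower and 1 (UQCRFS1) was higher in the 4 enriched than in the 4 input ERM libraries, where 28.9% of all 15619 tested genes were lower and 34.3% higher. The median log2 fold change of the 73 was -1.42, a fold of 0.373, against 0.11 for all genes, and 71 of 73 values were negative against 46.0% of all genes. Of the 73, 48 lay in the lowest 10% of all tested genes. With scaling to total counts the median of all genes was 0.43, with 6952 genes called higher and 3281 lower, and 63 of the 73 were still lower and 2 higher, with a median of -1.11. All 4 replicate pairs gave like values, with the 73-gene median at 1.68, 1.35, 1.56 and 1.56 log2 units below that of all genes. In bulk RNA, fewer cells that hold a transcript and less of it per cell cannot be told apart, and a change after enrichment is relative to the rest of the captured RNA. With no arm without s6G for ERM or NES, the part of the site and that of s6G labelling in these changes cannot be told apart.

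**Figure D1:**
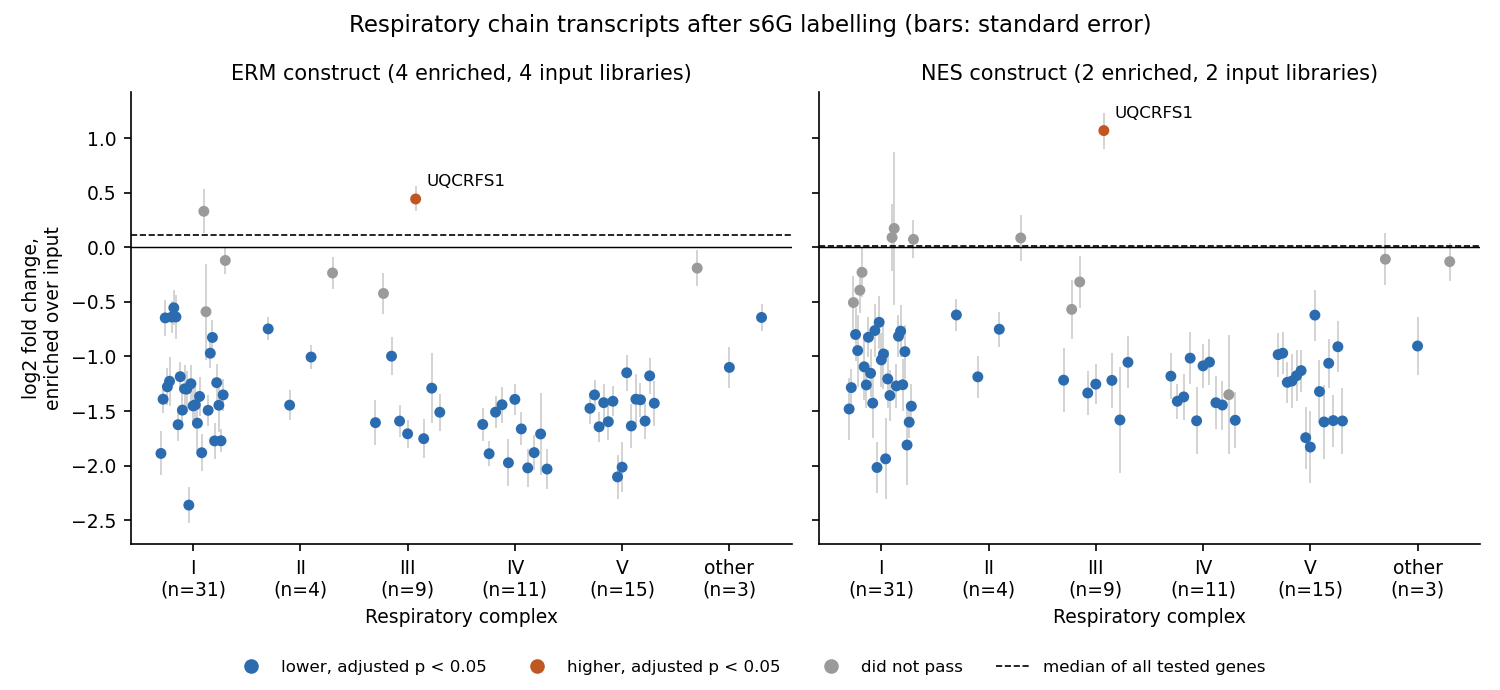
Log2 fold change of enriched over input with s6G (y axis) for each of the 73 genes, grouped by complex (x axis), for the ERM construct on the left and NES on the right. Points are genes, bars are standard errors, blue and orange points passed the edgeR test as lower and higher, grey points did not, and the dashed line is the median of all tested genes. Most points lie between -0.5 and -2.4, and UQCRFS1 of complex III is the 1 gene called higher in each panel.

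In complex I, the entry point for electrons from NADH, 28 of 31 genes were lower in enriched ERM libraries, with a median of -1.30. NDUFB4, an accessory subunit of the membrane arm, had 17.5, 26.2, 32 and 29.9 CPM in the enriched libraries, against 111, 122, 151 and 165 CPM in the inputs. The groups did not overlap, and its change of -2.36 ± 0.17 (edgeR adjusted p = 2.04e-09, n = 4) was the lowest of the 73. Among the core subunits, NDUFS8, which carries iron-sulfur clusters, fell by 1.77 ± 0.10, NDUFS7 by 1.45 ± 0.25, NDUFV1, which binds NADH, by 1.35 ± 0.14, and NDUFS3 by 0.97 ± 0.14. NDUFS1, also of the core, had 8.53, 3.52, 12.9 and 9.83 CPM in enriched libraries and 8.13, 11.2, 26.5 and 7.08 CPM in inputs, a change of -0.59 ± 0.44 that did not pass (adjusted p = 0.261). NDUFA8 had the smallest decrease of complex I that passed, -0.55 ± 0.16, and lost its call with scaling to total counts (edgeR adjusted p = 0.135).

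Complex II, or succinate dehydrogenase, also serves the citric acid cycle, and 3 of its 4 subunits were lower. The iron-sulfur subunit SDHB had 41, 50.6, 59.3 and 61.3 CPM in enriched ERM libraries, against 124, 124, 163 and 169.5 CPM in inputs, a change of -1.45 ± 0.14 (edgeR adjusted p = 4.1e-08). The flavoprotein SDHA changed by -0.75 ± 0.11 and the membrane anchor SDHC was also lower, with 103, 135, 128 and 120.3 CPM in enriched libraries, against 211, 233, 273 and 258 CPM in inputs. SDHD, the other membrane anchor, had 39.3, 62.4, 47.3 and 44.7 CPM in enriched libraries and 49.6, 58.8, 61.1 and 57.9 CPM in inputs. Its groups overlapped, and its change of -0.23 ± 0.14 did not pass (adjusted p = 0.166).

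In complex III, 7 of 9 entries were lower and UQCRFS1 was higher. UQCRC1 and UQCRC2, the core proteins, changed by -1.59 ± 0.14 and -1.71 ± 0.13, and the hinge protein gene UQCRH by -1.75 ± 0.18, with the caution that its copy UQCRHL (-1.29) may share its reads. UQCRFS1 encodes the Rieske iron-sulfur protein, which passes electrons towards cytochrome c1. It had 135, 171, 197 and 192 CPM in the enriched ERM libraries, against 125, 122, 131 and 134 CPM in the inputs. Every enriched library lay above every input, by little for the first, and the change was 0.44 ± 0.11 (edgeR adjusted p = 0.00239, n = 4), or 0.75 with scaling to total counts. UQCR11, a small subunit, changed by -0.42 ± 0.19 without passing the test (adjusted p = 0.0557).

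All 11 genes of complex IV, cytochrome c oxidase, were lower, with the lowest median of the 5 complexes at -1.71. COX5A had 54.4, 67.5, 70.8 and 71.1 CPM in enriched ERM libraries, against 260.2, 270.4, 225 and 227 CPM in inputs, which is -1.89 ± 0.11 on the log2 scale (edgeR adjusted p = 3.65e-10). COX4I1, the ubiquitous isoform of a subunit that binds ATP, had 139, 160.1, 203 and 209 CPM in enriched libraries, against 479, 445, 587 and 683 CPM in inputs, and changed by -1.62 ± 0.15. For both genes the enriched libraries lay below every input. Changes within the complex spanned only -2.03 (NDUFA4) to -1.39 (COX6C), and COX5B (-1.51 ± 0.15), COX6A1 (-1.44 ± 0.17) and COX6B1 (-1.97 ± 0.22) lay between them.

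All 15 genes of the ATP synthase were lower too, with a median of -1.43. The beta subunit ATP5B, the most abundant of the 73 transcripts per length, had 511, 598, 681 and 698 CPM in enriched ERM libraries, against 1362, 1350.4, 1765 and 1873 CPM in inputs, a change of -1.35 ± 0.14 (edgeR adjusted p = 1e-07) with no overlap. The alpha subunit ATP5A1 changed by -1.48 ± 0.14 and the gamma subunit ATP5C1, the shaft of the rotor, by -1.64 ± 0.14. ATP5G1, ATP5G2 and ATP5G3 encode precursors of one and the same mature c subunit of the rotor ring. Their changes were -2.10 ± 0.20 for ATP5G1, the lowest of the complex, -2.01 ± 0.23 for ATP5G2 and -1.15 ± 0.17 for ATP5G3, the highest. The difference between these 3 genes was not tested.

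In the ERM comparison 6 genes did not pass: NDUFC2, NDUFS1, NDUFV3, SDHD, UQCR11 and ATP5S. NDUFV3, an accessory subunit, had 90.5, 91.1, 88.4 and 113 CPM in enriched libraries and 90.7, 89.8, 115 and 119.6 CPM in inputs, and its 95% interval of -0.37 to 0.13 excludes the median of the 73. NDUFC2 (0.33 ± 0.20, interval -0.09 to 0.76) and ATP5S (-0.19 ± 0.16, interval -0.54 to 0.16) were likewise near 0. NDUFV3, NDUFC2, UQCR11 and ATP5S are named here after their values were seen.

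In the cytosol, the s6G libraries of the NES construct gave the same picture with 2 libraries per group. Of the 73 genes, 60 (82.2%) were lower and 1 was higher in the enriched than in the input libraries, where 26.4% of the tested genes were lower and 28.7% higher. The median of the 73 was -1.15, a fold of 0.450, against 0.01 for all genes. By complex, 25 of 31 genes of complex I, 3 of 4 of complex II, 6 of 9 of complex III, 10 of 11 of complex IV and 15 of 15 of complex V were lower. NDUFB4 had 32.3 and 25.7 CPM in enriched NES libraries, against 118 and 117 CPM in inputs, again with the lowest change of the 73 at -2.02 ± 0.24 (edgeR adjusted p = 1.49e-06). ATP5G2, at -1.83 ± 0.33, had the lowest change of complex V, COX6B1, at -1.59 ± 0.31, that of complex IV, and SDHB, at -1.19 ± 0.20, that of complex II.

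The gene called higher was again UQCRFS1. It had 212 and 208 CPM in the enriched NES libraries, against 94.8 and 105 CPM in the inputs, a change of 1.07 ± 0.17 (edgeR adjusted p = 2.54e-05, n = 2). Its call and direction held in ERM and in NES with each library left out and under each other setting tried. SDHD had 62 and 51.7 CPM in enriched libraries and 62.3 and 44.8 CPM in inputs, a change of 0.09 ± 0.21 that did not pass (adjusted p = 0.745). Of the 12 genes that did not pass in NES, the others were NDUFA5, NDUFA8, NDUFA11, NDUFC2, NDUFS1, NDUFV3, UQCR11, UQCRB, COX7A2L and ATP5S, between -0.57 and 0.17, and COX8A at -1.35 ± 0.55 (adjusted p = 0.0566). The calls of ATP5G3 (-0.62 ± 0.23) and of UQCRHL (-1.58 ± 0.48) were lost with any of the 4 NES libraries left out, and that of NDUFB5 (-0.69 ± 0.24) with any except the first enriched one.

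**Figure D2:**
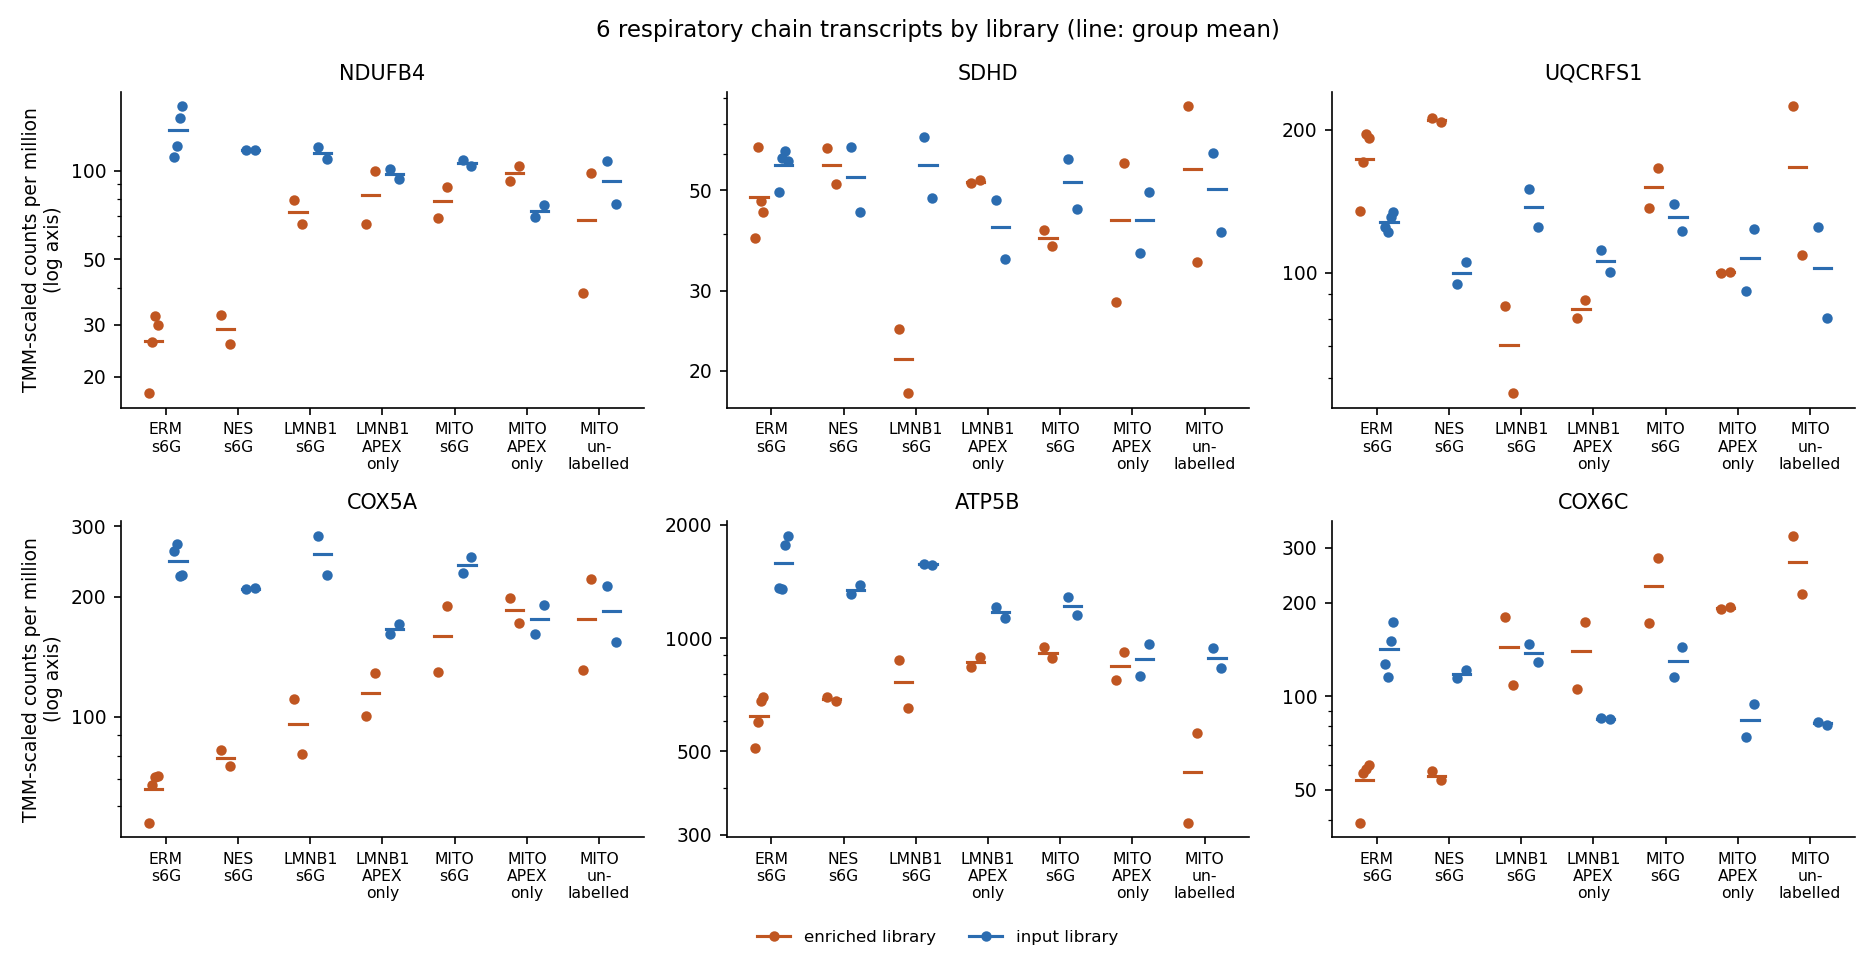
TMM-scaled CPM on a log axis (y axis, each panel with its own range) of NDUFB4, SDHD, UQCRFS1, COX5A, ATP5B and COX6C in 7 arms (x axis). Each point is a library, orange for enriched and blue for input, and the short lines are group means. With s6G at ERM and NES, the enriched libraries lie below all inputs for NDUFB4, COX5A, ATP5B and COX6C and above them for UQCRFS1, while those of SDHD overlap the inputs.

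Whether the depletion was larger at the ER membrane than in the cytosol was asked by the difference between the ERM and the NES changes. For 63 of 73 genes the change was lower in ERM, with a median difference of -0.33 against -0.04 for all genes (-0.20 without the first enriched ERM library and -0.25 without the fourth ERM input), but edgeR called 0 of the 73 (0 were higher and 5 lower at an unadjusted p under 0.05, where 13.9% of all genes were past it, and 0.0064% of all genes were called higher). DESeq2 called 1 gene, UQCRFS1, lower in ERM than in NES (adjusted p = 0.0386), and 1.62% of all genes lower. With the enriched and input libraries of each replicate as pairs, edgeR called 6 of the 73 lower (3.58% of all genes): UQCRFS1, COX7A2, ATP5G3, UQCRH, COX7A2L and ATP5A1, with differences of -0.64 to -0.48. For UQCRFS1, the difference of -0.63 ± 0.20 had an interval of -1.05 to -0.21 and an adjusted p of 0.186 without pairs and 0.0194 with them.

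The promoters of 4 of these genes are shown for comparison of the most lowered transcript (NDUFB4), the one that rose (UQCRFS1) and 2 genes lowered by an intermediate amount (SDHB and COX5B). Each line gives the RefSeq sequence of GRCh38.p14 from 250 bases before to 50 bases after the gene's start, 5′ to 3′ on the gene's strand. They lie at chr3:120596086-120596385 (plus strand), chr19:29213102-29213401 (minus strand), chr1:17053983-17054282 (minus strand) and chr2:97645812-97646111 (plus strand). Capitals mark letters of 3 motifs of factors known for these genes: the palindrome read by NRF1, in NDUFB4, CCGGAAG, read by ETS factors such as GABPA, in SDHB and in 2 places in COX5B, and AAGATGGCG, read by YY1, in SDHB.
NDUFB4: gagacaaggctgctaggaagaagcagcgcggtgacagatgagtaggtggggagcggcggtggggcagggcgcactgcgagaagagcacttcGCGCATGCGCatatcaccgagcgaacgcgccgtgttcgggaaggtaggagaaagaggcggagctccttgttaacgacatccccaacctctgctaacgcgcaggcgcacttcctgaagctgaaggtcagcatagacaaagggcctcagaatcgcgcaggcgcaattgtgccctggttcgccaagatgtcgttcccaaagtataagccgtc
UQCRFS1: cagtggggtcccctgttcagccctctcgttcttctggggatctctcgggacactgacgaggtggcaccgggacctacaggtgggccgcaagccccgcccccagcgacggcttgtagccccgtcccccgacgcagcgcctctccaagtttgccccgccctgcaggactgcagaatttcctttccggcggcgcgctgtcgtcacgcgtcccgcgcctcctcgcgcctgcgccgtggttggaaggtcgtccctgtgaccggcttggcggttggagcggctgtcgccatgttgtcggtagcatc
SDHB: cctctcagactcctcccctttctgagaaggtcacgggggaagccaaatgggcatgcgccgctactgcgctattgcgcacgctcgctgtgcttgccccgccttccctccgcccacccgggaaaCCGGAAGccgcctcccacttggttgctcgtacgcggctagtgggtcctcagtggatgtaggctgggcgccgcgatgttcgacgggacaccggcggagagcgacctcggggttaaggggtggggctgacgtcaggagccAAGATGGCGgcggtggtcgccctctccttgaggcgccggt
COX5B: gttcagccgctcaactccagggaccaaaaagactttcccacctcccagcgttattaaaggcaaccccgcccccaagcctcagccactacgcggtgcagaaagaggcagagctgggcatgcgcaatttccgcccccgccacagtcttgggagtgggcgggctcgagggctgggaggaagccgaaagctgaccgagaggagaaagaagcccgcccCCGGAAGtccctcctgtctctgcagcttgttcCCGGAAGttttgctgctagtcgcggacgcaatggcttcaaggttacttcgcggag
No letters of these motifs are in the UQCRFS1 window. Searched on both strands, the NRF1 letters were in 4 of the 58 promoters that matched a member (6.90%, against 1.36% of 27305 promoters), the ETS letters in 18 (31.0%, against 10.7%), the YY1 letters in 6 (10.3%, against 1.85%) and TATAAA in 5 (8.62%, against 12.0%). The promoters with ETS letters included those of SDHD, UQCR11 and NDUFS1, which were not called in ERM. A match of letters is a description and not a measured site. Whether these motifs go with the change after enrichment was not tested.

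Other genes of mitochondrial energy metabolism were read in the same libraries. CYC1, the cytochrome c1 subunit of complex III, changed by -1.12 ± 0.14 in ERM and -0.75 ± 0.20 in NES, and NDUFAB1, a complex I subunit and acyl carrier protein, by -0.96 ± 0.12 in ERM and -0.73 ± 0.18 in NES, and all 4 passed. CYCS, cytochrome c, changed by -0.40 ± 0.14 in ERM (adjusted p = 0.0161) and by -0.03 ± 0.19 in NES (adjusted p = 0.912). Of 13 enzymes of the citric acid cycle, 13 were lower in ERM and 11 in NES, with MDH2 at -1.55 ± 0.13 in ERM and citrate synthase, CS, at -1.23 ± 0.10. Assembly factors, which build the complexes without staying in them, went both ways: of 51 tested, 23 were lower and 13 higher in ERM, and 11 lower and 13 higher in NES. In ERM these are 45.1% lower and 25.5% higher, beside 28.9% and 34.3% of all genes, and in NES 21.6% and 25.5%, close to the 26.4% and 28.7% of all genes. UQCC2, for complex III, changed by -1.90 ± 0.20 in ERM, while COX10, which makes heme for complex IV, changed by 1.10 ± 0.13 and SCO1, a copper carrier for complex IV, by 0.85 ± 0.10.

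Of 11 listed regulators of nuclear or mitochondrial respiratory genes, 10 were higher in ERM (median 0.91) and 11 in NES (median 1.34). Of all tested genes, 34.3% were higher in ERM and 28.7% in NES. None of these regulators was called lower. GABPA, an ETS factor, changed by 0.95 ± 0.11 in ERM and 1.46 ± 0.16 in NES, NRF1 by 0.80 ± 0.13 and 1.24 ± 0.18, and TFAM, which packages mitochondrial DNA, by 0.91 ± 0.12 and 0.93 ± 0.17. UQCC2, COX10, SCO1, MDH2, CS, GABPA, NRF1 and TFAM were picked after their values were seen. The 13 mRNAs of the mitochondrial genome, whose proteins join the same complexes, were lower in ERM (13 of 13, median -2.64) and NES (11 of 13, median -2.10). Of all tested genes, 28.9% were lower in ERM and 26.4% in NES.

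At the nuclear lamina, a smaller set of the transcripts was lower with s6G. Of the 73 genes, 15 (20.5%) were lower and 0 higher in the enriched than in the input LMNB1 s6G libraries, where 7.64% of 16525 tested genes were lower and 5.37% higher. The median was -0.35, against 0.13 for all genes. By complex, 6 of 15 genes of complex V were lower, 2 each of complexes I (of 31), II (of 4) and III (of 9), 1 of 11 of complex IV and 2 of the 3 other genes. This count rests on single libraries: it was 3 (4.11%, where 2.46% of all genes were lower) without the second enriched library, and 4 (5.48%, where 3.86% were) without the first input. It was 10 (13.7%, where 3.63% were) without the second input and 17 (23.3%, where 4.49% were) without the first enriched library. Paired by replicate, it was 21 lower and 1 higher, where 10.6% of all genes were lower and 8.35% higher.

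The genes that were lower in each of these fits were ATP5D, COX5A and ATP5B. ATP5D, the delta subunit of the F1 rotor stalk, had 92.2 and 63.5 CPM in the enriched LMNB1 libraries, against 221 and 221 CPM in the inputs, a change of -1.51 ± 0.25 (edgeR adjusted p = 0.00223, n = 2). COX5A had 111 and 80.8 CPM in enriched libraries, against 284 and 226 CPM in inputs, a change of -1.41 ± 0.24 (adjusted p = 0.00268). The change of ATP5B was -1.04 ± 0.19 (adjusted p = 0.00369). Enriched libraries of all 3 genes lay below both inputs.

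The other named genes called lower at the lamina lost their call without the second enriched library or the first input. They were SDHD (-1.42 ± 0.39) and SDHB (-0.80 ± 0.24) of complex II, UQCRC1 (-0.97 ± 0.22) and UQCRFS1 (-0.97 ± 0.26) of complex III, NDUFB11 (-1.23 ± 0.29) and NDUFB5 (-1.14 ± 0.32) of complex I, ATP5A1 (-0.88 ± 0.20), ATP5C1 (-0.98 ± 0.24) and COX7A2L (-1.60 ± 0.45). UQCRFS1 had 85.1 and 55.7 CPM in enriched LMNB1 libraries, against 150.2 and 125 CPM in inputs (edgeR adjusted p = 0.0294). SDHD had 24.7 and 17.8 CPM in enriched libraries, against 65.5 and 48.2 CPM in inputs (edgeR adjusted p = 0.0293). Both enriched libraries lay below both inputs for each gene, whereas UQCRFS1 was called higher and SDHD not called in ERM and NES, but the constructs were fitted apart and the difference was not tested.

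Without a thionucleoside, the lamina libraries showed little of this. In the APEX-only arm 1 of 73 genes was lower and 0 higher (1.02% of all genes were lower), with a median of 0.07 against 0.06. The gene was ATP5D, with 52.1 and 83.5 CPM in enriched libraries, against 141 and 149.9 CPM in inputs (-1.10 ± 0.25, edgeR adjusted p = 0.0486), and it lost its call with any of the 4 libraries left out. In the unlabelled arm the 73 genes lay on the high side, with a median of 0.65 against -0.01 for all genes. There edgeR called 0 of them (0.0242% of all genes were higher and 0.0121% lower, and 36 of the 73 were higher and 2 lower at an unadjusted p under 0.05, where 17.3% of all genes were past it), and DESeq2 called 18 higher and 2 lower (1.33% and 1.34% of all genes). Without the first enriched library edgeR called 18 higher and 3 lower (24.7% and 4.11%, where 2.04% and 3.95% of all genes were). The median of the 73 was 0.34 without the second input. COX6C, a small complex IV subunit, had 236 and 521 CPM in enriched unlabelled LMNB1 libraries, against 123 and 85.2 CPM in inputs (1.87 ± 0.37, edgeR adjusted p = 0.0899), and its groups did not overlap.

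Set against APEX labelling alone, the s6G arm at the lamina had lower changes for 62 of 73 genes, with a median difference of -0.42 against 0.03 for all genes. In edgeR 0 of these differences passed (1 higher and 13 lower at an unadjusted p under 0.05, where 12.2% of all genes were past it). By DESeq2, NDUFB5 and SDHD were lower (2.21% of all genes were), with edgeR differences of -1.49 ± 0.45 for NDUFB5 and -1.75 ± 0.54 for SDHD. This rests on single libraries: the median difference was -0.10 without the second enriched s6G library and -0.81 without the first.

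In the mitochondrial matrix, edgeR without pairs called 13 of 13 mitochondrial mRNAs higher with s6G and 12 of 13 with s4U and with APEX-only labelling. It called none of the 73 genes in these arms. Paired by replicate, it called some of the 73 in each arm, as given below. With s6G, edgeR called 0 of 73 genes (0.29% of 15151 genes were higher and 0.0264% lower, and 6 of the 73 were higher and 1 lower at an unadjusted p under 0.05, where 8.86% of all genes were past it), with a median of -0.09 against 0.01. DESeq2 called 1 gene higher (1.6% of all genes), NDUFS6, an accessory subunit that binds zinc. NDUFS6 had 208 and 376 CPM in enriched libraries, against 113 and 133 CPM in inputs, a change of 1.25 ± 0.32 (edgeR adjusted p = 0.173) with no overlap. Paired by replicate, NDUFS6, NDUFB3, SDHA and COX6C were higher and COX7A2L was lower (3.47% of all genes were higher and 3.35% lower). The 13 mitochondrial mRNAs had a median of 3.86 in this arm. With scaling to total counts, mitochondrial counts included, the median of all genes was -0.87 and 34 of the 73 (46.6%) were called lower, where 18.3% of all genes were.

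With s4U, edgeR and DESeq2 called 0 of 73 genes in the matrix (0.112% of all genes were higher by edgeR and 0 lower, and 0 of the 73 were higher and 3 lower at an unadjusted p under 0.05, where 6.93% of all genes were past it), with a median of -0.15 against 0.01. Paired by replicate, ATP5D and COX5A were lower (3.23% of all genes were). ATP5D had 78.4 and 113 CPM in enriched s4U libraries, against 178 and 155 CPM in inputs. In the APEX-only arm the median was 0.41 against -0.01 (0.22 without the first APEX-only input), or -0.31 against -0.74 with scaling to total counts, and edgeR called 0 genes (0.251% of all were higher and 0.0198% lower, and 18 of the 73 were higher and 0 lower at an unadjusted p under 0.05, where 8.86% of all genes were past it). Paired by replicate, 15 of the 73 were higher there (4.33% of all genes were), and DESeq2 called 6 higher (1.71% of all genes): COX6C, NDUFB3, NDUFB1, UQCRB, NDUFA5 and COX7C. COX6C had 190.2 and 193 CPM in enriched APEX-only libraries, against 73.9 and 94.3 CPM in inputs (1.19 ± 0.29, edgeR adjusted p = 0.147).

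The unlabelled MITO arm, which had no biotin-phenol, had 9 of 73 genes higher (12.3%, where 5.78% of all genes were) and 1 lower (where 4.09% were). They included 4 genes of complex IV and 3 of complex V. COX6C had 328 and 213 CPM in enriched unlabelled libraries, against 82.9 and 81.2 CPM in inputs, a change of 1.68 ± 0.31 (edgeR adjusted p = 0.0105). NDUFS7, at 1.85 ± 0.49, NDUFB1, at 1.25 ± 0.34, ATP5E, at 1.07 ± 0.30, and COX5B, at 0.99 ± 0.28, were also higher, and ATP5B, at -0.98 ± 0.29, was lower. These are the libraries of 123341 and 842177 counts. With either input left out, edgeR called 0 genes among the 73 and among all genes. Without the first enriched library 4 of the 73 were higher and 1 lower (5.48% and 1.37%, where 5.61% and 4.90% of all genes were). Without the second, 10 were higher and 3 lower (13.7% and 4.11%, where 4.04% and 6.78% were), and in a fit of the 4 unlabelled libraries alone 1 was higher (where 2.47% were). Paired by replicate, 14 were higher and 2 lower (9.89% and 10.6% of all genes).

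By group means, COX6C was on the high side in the enriched libraries of all 4 MITO arms and of the APEX-only and unlabelled LMNB1 arms, overlapped the inputs with s6G at LMNB1, and was lower with s6G at ERM and NES. In enriched MITO s6G libraries it had 172 and 279 CPM, against 115 and 145 CPM in inputs (0.79 ± 0.29, edgeR adjusted p = 0.387), and in enriched s4U libraries 157 and 157 CPM, against 111 and 103 CPM. Of the values on the high side, the unlabelled MITO value passed the test without pairs, and constructs were not tested against each other.

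**Figure D3:**
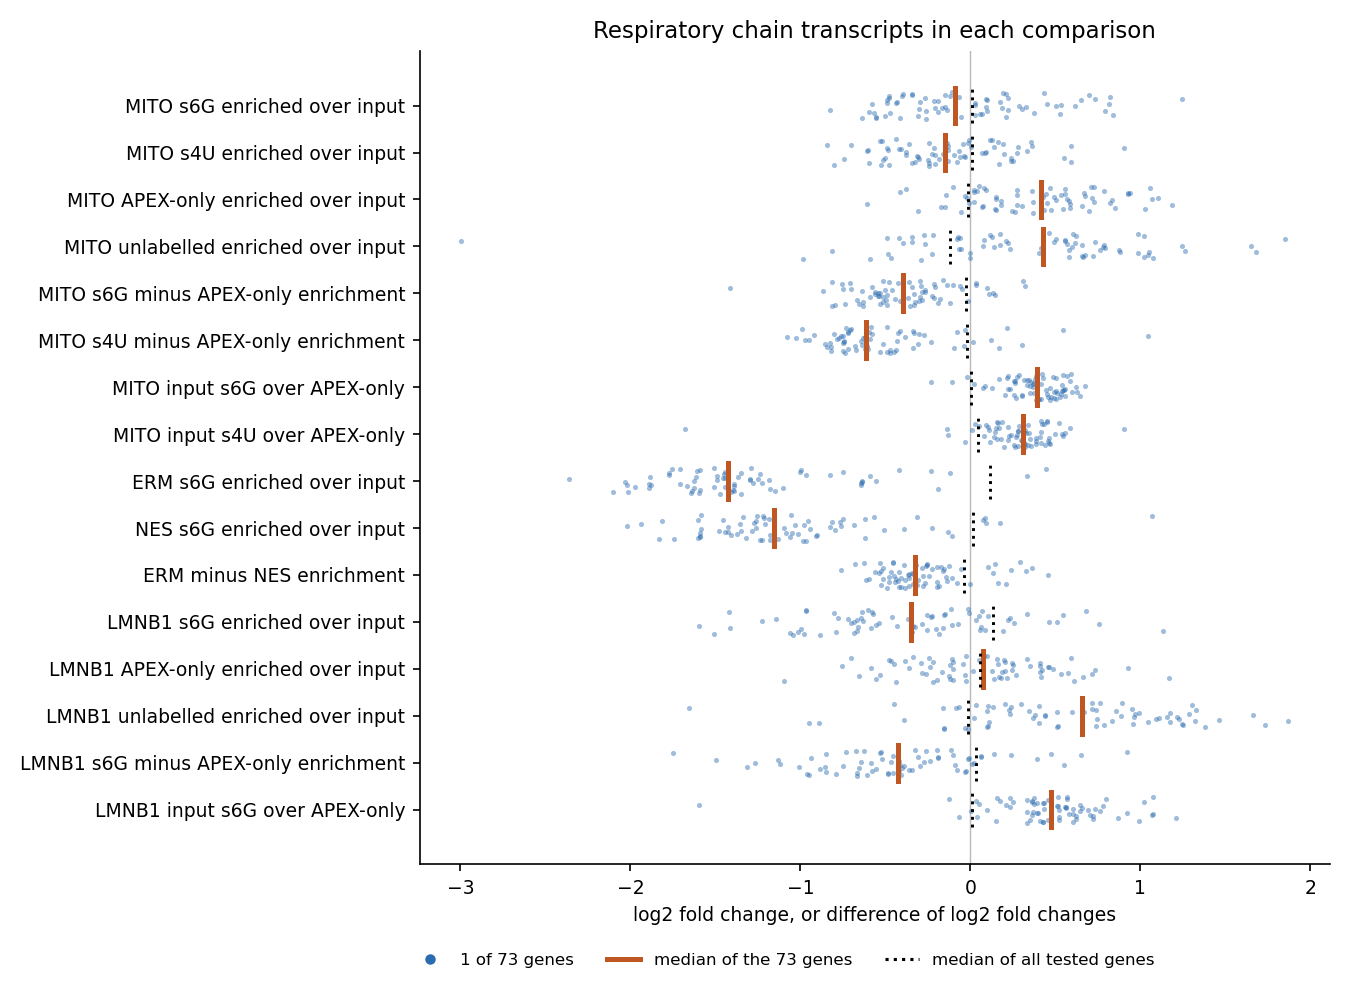
Log2 fold changes, or differences of log2 fold changes, (x axis) of the 73 genes in 16 comparisons (y axis). Each blue point is a gene, the orange line is the median of the 73 and the dotted line that of all tested genes. The ERM and NES medians of -1.42 and -1.15 stand apart. The APEX-only and unlabelled MITO, the unlabelled LMNB1 and all input comparison medians lie above 0, from 0.31 to 0.65. The LMNB1 APEX-only median is 0.07.

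In the matrix, the s6G change was lower than the APEX-only change for 65 of 73 genes, with a median difference of -0.39 against -0.03 for all genes, and the s4U change for 66, with a median of -0.61 against -0.02. Both differences use the same APEX-only libraries. In edgeR and in DESeq2 0 of the 73 passed in either (0 of all genes passed in edgeR, and 1 of the 73 with s6G and 7 with s4U were lower at an unadjusted p under 0.05, where 2.45% and 2.74% of all genes were past it). UQCRC2 had a difference of -0.81 ± 0.41 with s6G and -0.99 ± 0.41 with s4U. The median s6G difference was -0.23 without the first enriched s6G library or without the first APEX-only input, and -0.67 without the second APEX-only input. The median s4U difference was -0.39 without the first APEX-only input and -0.38 without the second enriched s4U library.

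The inputs asked whether the thionucleosides went with other steady-state levels before any enrichment. Input levels of the 73 genes were higher with s6G than without it for 70 genes in MITO (median 0.39, where 50.2% of all genes were higher) and for 70 in LMNB1 (median 0.47, where 50.6% were), and with s4U for 69 in MITO (median 0.31, where 54.5% were). The s6G and s4U values in MITO share their APEX-only inputs. In edgeR 0 of the 73 were called in any of these 3 comparisons (0.0528% of all genes were higher with s6G and 0 with s4U in MITO, and 0.109% higher and 0.0182% lower with s6G in LMNB1). The shares of all genes at an unadjusted p under 0.05 were 8.49% and 3.85% in MITO with s6G and s4U and 11.5% in LMNB1. At an unadjusted p under 0.05, 3 were higher with s6G in MITO, 1 higher and 1 lower with s4U, and 16 higher and 1 lower in LMNB1, where DESeq2 called 4 higher (0.968% of all genes): ATP5O, UQCRQ, COX6A1 and COX8A. DESeq2 called 0 in either MITO comparison.

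ATP5O, a stalk subunit of the ATP synthase, had 60.2 and 42.3 CPM in LMNB1 s6G inputs, against 22.6 and 21.7 CPM in APEX-only inputs (1.21 ± 0.30, edgeR adjusted p = 0.152), without overlap. ATP5B had 1579 and 1564 CPM in LMNB1 s6G inputs, against 1206 and 1134 CPM in APEX-only inputs, and in MITO 1286 and 1148 CPM in s6G inputs, against 791 and 967 CPM in APEX-only inputs. Its s6G inputs lay above the APEX-only inputs in both constructs. The MITO input values rest on single libraries: without the first APEX-only input the median was 0.20 with s6G, with 61 of 73 genes positive, and 0.08 with s4U, with 53 positive. It was 0.16 with s4U without the first s4U input. NDUFS1 went the other way with s6G in LMNB1, with 6.31 and 9.89 CPM in s6G inputs, against 24.6 and 24.7 CPM in APEX-only inputs (-1.59 ± 0.62, edgeR adjusted p = 0.346). It was also lower with s4U in MITO inputs (-1.68 ± 0.54), again without a call. NDUFS1 had as few as 18 counts in an input library.

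As a share of all counts, the 73 transcripts took 0.497% to 0.691% of the enriched ERM libraries, against 1.15% to 1.44% of their inputs, and 0.577% and 0.599% of the enriched NES libraries, against 1.11% and 1.16% of theirs. In MITO the enriched shares were 0.677% and 0.572% with s6G, against 1.13% and 1.25% in inputs, but with the counts of the mitochondrial genome left out of the total they were 1.06% and 1.37%, against 1.19% and 1.33%. The enriched unlabelled MITO libraries had 1.42% and 1.15%, against 0.959% and 0.925% in inputs. With s4U in MITO the enriched shares were 0.800% and 0.642%, against 1.17% and 1.11% in inputs. With s6G in LMNB1 they were 1.12% and 0.805%, against 1.27% and 1.14%. Enriched libraries thus lay below all inputs on both scales in ERM, NES, MITO s4U and LMNB1 s6G. In the MITO s6G and APEX-only arms this held only with the mitochondrial counts in the total. Without those counts, the MITO s6G groups overlapped and the MITO APEX-only order was reversed. The enriched APEX-only shares were then 1.30% and 1.23%, above the inputs at 0.965% and 1.12%. For the unlabelled arms of MITO and LMNB1 the enriched shares lay above the inputs, with 1.26% and 1.59% in LMNB1, against 1.10% and 0.939%.

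**Figure D4:**
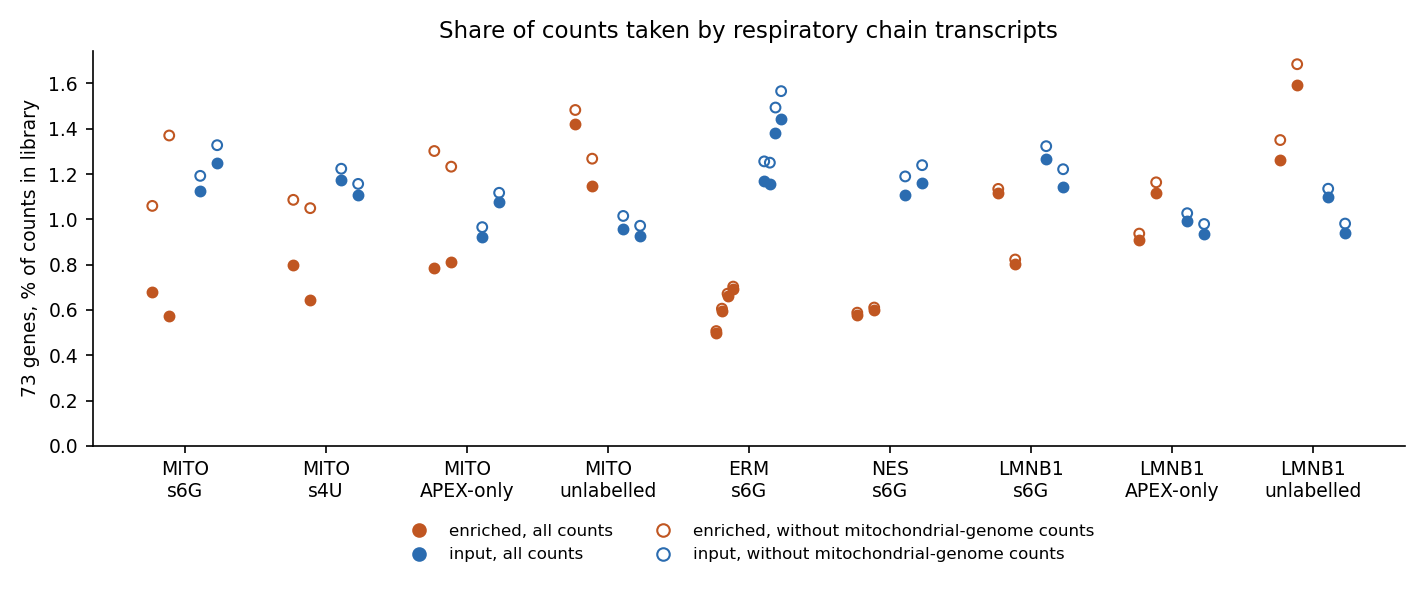
Share of a library's counts in the 73 genes (y axis, percent) for each construct and arm (x axis). Points are libraries, orange for enriched and blue for input, filled for all counts and open with counts of the mitochondrial genome left out. The enriched ERM and NES libraries lie at 0.497% to 0.691%, under their inputs on both scales. Those of MITO s4U and LMNB1 s6G also lie under their inputs on both scales.

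Among the 72 members with RefSeq coordinates, on 22 chromosomes, gene span and change were compared. Across genes, which are not independent replicates, Spearman's rho between gene span and log2 fold change was 0.31 in ERM and 0.37 in NES, -0.07 in the LMNB1 s6G arm, -0.05 in the MITO s6G arm and -0.35 in the unlabelled MITO arm. Between inputs, where there was no enrichment, rho was -0.37 for s4U and -0.23 for s6G over APEX-only in MITO, and -0.36 for s6G in LMNB1. These comparisons read the same genes in libraries of different depth, and the values are given as a description. NDUFB4 spans 6172 bases (chr3, 120596336 to 120602507, GRCh38.p14) and UQCRFS1 7832 bases (chr19, 29205320 to 29213151).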

How the data were processed

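Gene counts per library were deposited by the authors as whole numbers. The submitters' processing notes name HISAT2 2.1.0 and HTSeq 0.7.2 among their tools, with GRCh38 as build. Annotation and strand setting: not given in the sources used here. Reads of overlapping or antisense genes may thus be mixed. For MITO, the authors deposited log2 TPM tables, used here only for levels per length. Members and gene lists were chosen with earlier results of these data known.

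Counts were fitted with edgeR 4.0.16 (R 4.3.3), with TMM scaling, filterByExpr and robust quasi-likelihood tests, in 3 fits: MITO (16 libraries, 15151 genes), ERM with NES (12 libraries, 15619 genes) and LMNB1 (12 libraries, 16525 genes). P-values were Benjamini-Hochberg adjusted over all genes. Enriched and input libraries of one number come from the same RNA, per the labels' protocols, so a replicate block was also fitted. Deviations of paired libraries from their group means correlated at 0.04 to 0.64. The other alternatives were DESeq2 1.42.0, RLE and total-count scaling, no low-count filter, the compared libraries alone and each library left out. The scripts were tested on simulated data in which 200 genes changed, equally up and down. The ERM comparison had 5362 genes called higher and 4508 lower, so this test does not cover scaling under a change that wide.

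Genes named were the catalytic and core subunits, the lowest and highest called gene of each complex, genes called against the majority and the tissue isoforms. Other genes are listed as the members of a small count or of those that did not pass, picked once values were seen, and 1 gene of the rule is not reported here. Depth was 123341 to 14496768 counts per library.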

Additional observations from a re-analysis of the deposited data

Results flagged for a closer look

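Of 104 groups of 4 ERM libraries examined, 6 held a library far from the other 3, where chance gives about 1 in 20. In the enriched libraries, the first was low for COX7A2 (49.1 CPM, others 69.0 to 70.5), ATP5E (44.9 CPM, others 73.0 to 77.6), COX6C (39.3 CPM, others 56.8 to 60.3) and ATP5C1 (78.7 CPM, others 107 to 112). The second was high for NDUFC2 (22.4 CPM, others 12.3 to 13.5). Among the inputs, the second was low for UQCR11 (14.1 CPM, others 22.6 to 24.1).

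UQCRFS1 moved in opposite directions with s6G, at 0.44 in ERM and 1.07 in NES, against -0.97 in LMNB1. Every library of each enriched group lay on that side of its inputs. ERM and NES were fitted apart from LMNB1, and the difference was not tested.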

How the results depend on the processing

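Of 75 named calls, 53 kept call and direction under every setting and 0 reversed. Relative to all genes, the 73-gene median moved with single libraries left out from -1.64 to -1.39 in ERM, -1.19 to -1.07 in NES, -0.98 to -0.13 in LMNB1 s6G, -0.17 to 0.17 in LMNB1 APEX-only (reversed to -0.17 without the second enriched and -0.13 without the second input library), 0.36 to 0.76 in LMNB1 unlabelled, 0.32 to 0.63 in LMNB1 inputs, 0.18 to 0.59 in MITO s6G inputs, 0.027 to 0.49 in MITO s4U inputs, -0.38 to -0.18 for ERM minus NES, -0.12 to 0.013 in MITO s6G, -0.34 to 0.063 in MITO s4U, 0.21 to 0.58 in MITO APEX-only, 0.24 to 0.86 in MITO unlabelled and -0.78 to -0.34 for s4U minus APEX-only. Calls then ran from 3 to 17 in LMNB1 s6G, 0 to 0 in LMNB1 APEX-only, 0 to 21 in LMNB1 unlabelled, 0 to 1 in MITO s6G and 0 to 13 in MITO unlabelled.

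With the replicate block, calls were 5 in MITO s6G, 2 in s4U, 15 in APEX-only, 16 in unlabelled, 6 for ERM minus NES and 59 in LMNB1 inputs (58 higher and 1 lower, where 16.8% and 16.4% of all genes were), where numbers across arms share no labelled source. DESeq2 called 1 in MITO s6G, 6 in APEX-only and 18 in unlabelled (23.3% higher and 1.37% lower, where 8.98% and 3.04% of all genes were). It called 1 for ERM minus NES and 3 in LMNB1 APEX-only (2 higher and 1 lower, where 2.16% and 4.09% of all genes were). The other DESeq2 counts were 20 in LMNB1 unlabelled, 2 for LMNB1 s6G minus APEX-only and 4 in LMNB1 inputs. Total-count scaling gave 34 lower in MITO s6G, 1 lower in s4U (where 0.746% of all genes were) and 1 lower in APEX-only (where 7.27% were). In LMNB1 APEX-only, total-count and RLE scaling each gave 0. Without a low-count filter calls were 2 in LMNB1 APEX-only (1.37% higher and 1.37% lower, where 0.45% and 0.526% of all genes were). They were 19 higher in LMNB1 unlabelled (26%, where 0.473% were), 1 lower for LMNB1 s6G minus APEX-only (where 0.384% were) and 4 higher in LMNB1 inputs (where 0.402% were). In the same setting the median moved to 0.33 in MITO unlabelled, -0.019 in LMNB1 APEX-only and 0.51 in LMNB1 inputs. Compared libraries alone gave 1 in MITO unlabelled and 24 in LMNB1 s6G (31.5% lower and 1.37% higher, where 12.4% and 10.3% of all genes were). They gave 4 in LMNB1 APEX-only (4.11% lower and 1.37% higher, where 6.06% and 3.25% were) and 1 lower for LMNB1 s6G minus APEX-only (where 2.2% were). Without mitochondrial counts, mean shares were 1.21% in MITO s6G, 1.07% in s4U and 1.27% in APEX-only enriched libraries, and 1.19% in s4U, 0.993% in unlabelled, 1.21% in NES and 1.00% in LMNB1 APEX-only inputs. The cause was not tested. The unlabelled enriched MITO libraries had 123341 and 842177 counts.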
